A study of Mus musculus with 6 samples.

Results

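The T cell anergy genes described here are 8 genes that were given by name, with earlier results of these data known: *Izumo1r*, *Nrn1*, *Rnf128*, *Cblb*, *Itch*, *Dgka*, *Dgkz* and *Ndrg1*. They are 8 of the 45777 genes in the tables, and their 67 transcripts are among 129299 listed. Anergy is a lasting state in which a T cell that met its antigen without costimulation no longer divides or makes IL-2 when it meets the antigen again. Calcium and NFAT signalling without AP-1 switches on a programme that holds the cell back at several points: E3 ubiquitin ligases (encoded by *Cblb*, *Itch* and *Rnf128*) mark signalling proteins for removal, and diacylglycerol kinases (*Dgka* and *Dgkz*) remove the lipid that carries the receptor signal to Ras and protein kinase C. Folate receptor 4 (*Izumo1r*) and neuritin (*Nrn1*) are surface proteins known from both anergic and regulatory T (Treg) cells.

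CD4+Lrig1+ and CD4+Lrig1- T cells (Lrig1+ and Lrig1- below) were sorted by flow cytometry from spleens of C57BL/6 mice, females aged 7 weeks of a common inbred strain, and their RNA was sequenced. The labels name no engineered allele and no treatment, so the groups differ by the Lrig1 protein on the cell surface. Of 6 labelled samples, 3 per group, the libraries used are the 4 that the column names tie to a group. They stand in 2 tables with 1 Lrig1+ and 1 Lrig1- library each, called set 1 and set 2 here.

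The estimated read counts were summed per gene and ranged from 44865070 to 59977951 in total per library. They are given as CPM, counts scaled to library size with TMM factors, which compares a gene between libraries, or as TPM, a level that also takes transcript length into account and so compares genes or transcripts within a library. Ratios between libraries for transcripts and groups of transcripts are ratios of TPM. These do not carry the TMM factors and so differ somewhat from ratios of CPM. Libraries stood apart by set more than by group, as log2 CPM correlated across genes at 0.975 and 0.974 between the groups of a set, and at 0.934 and 0.935 between the sets of a group. The ratio within each set is therefore given first, with 1 library per group and no replicate check. The test is edgeR's quasi-likelihood test over all 4 libraries, with Benjamini-Hochberg adjustment over the 16123 genes that passed the filter on low counts, which all 8 anergy genes did. It was run without and with a term for the set. The study describes its quantitative data as coming from biologically independent material, but the labels and columns do not say which animals stand behind each library. The p-values therefore refer to the spread between these libraries, which the test estimates for each gene with help from all genes.

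*Lrig1* itself had 75.4 CPM in the Lrig1- and 221 CPM in the Lrig1+ library of set 1, and 36.7 and 129 CPM in set 2, so the libraries follow their labels. The 10 T cell markers summed to 4405 to 6604 CPM with no marker at 0. The 5 Treg markers, among them *Foxp3*, summed to 207 and 140 CPM in the Lrig1- libraries and to 2020 and 1717 CPM in the Lrig1+ libraries, and all 5 were higher in both sets. The part of the Treg markers in the results was not tested. Summed markers of other cells were below those of T cells, at 78.5 to 775 CPM for 10 B cell, 59.6 to 281 for 10 myeloid, 33.9 to 89.2 for 5 NK cell, 14.1 to 97.3 for 2 CD8 T cell and 9.27 to 95.7 for 5 erythroid markers with none at 0. Each sum was higher in both libraries of set 2 than in those of set 1. The B cell sum was 78.5 CPM in the Lrig1- and 98.3 CPM in the Lrig1+ library of set 1, and 775 and 391 CPM in set 2. In bulk RNA, fewer cells of a type and less RNA per cell cannot be told apart.

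The 8 anergy genes did not move together. In both sets, *Izumo1r*, *Nrn1*, *Rnf128* and *Dgkz* had the higher level in Lrig1+ T cells, *Cblb*, *Itch* and *Dgka* had the lower level, and *Ndrg1* was lower in set 1 and higher in set 2. The share of all genes tested was 35.9% higher in both sets and 41.3% lower in both sets. Both Lrig1+ libraries lay above both Lrig1- libraries for 3 of the 8 genes (*Izumo1r*, *Nrn1* and *Rnf128*), against 14.3% of all genes tested, and below them for 1 gene (*Itch*), against 11.8%.

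**Figure D1:**
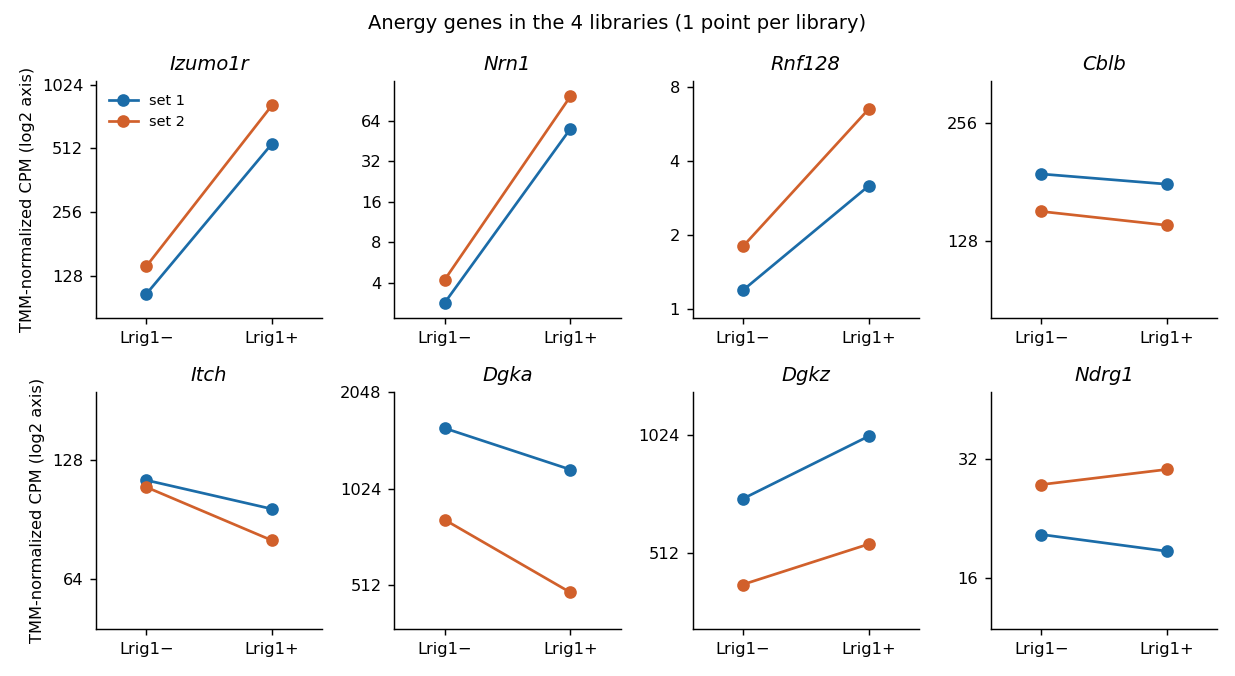
TMM-normalized CPM (log2 axis, 1 panel per gene) of the 8 anergy genes in the Lrig1- and Lrig1+ library of set 1 (blue) and set 2 (orange), 1 point per library with a line joining the libraries of a set. *Izumo1r*, *Nrn1* and *Rnf128* were higher in both sets with no overlap between the groups, *Itch* was lower with no overlap, and for *Dgka* and *Dgkz* the gap between the sets was wider than that between the groups.

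Without the set term, edgeR's quasi-likelihood test called 0% of genes, and therefore none of the 8, at an adjusted p under 0.05. At an unadjusted p under 0.05 it had 674 genes higher and 227 lower of the 16123 tested. Among the higher ones were 2 of the 8 anergy genes (*Izumo1r* and *Nrn1*). With no difference between the groups, a share of about 0.05 of all genes would pass this threshold. A DESeq2 Wald test called 260 genes higher (1.61%) and 50 lower (0.31%), with *Izumo1r* (adjusted p = 2.8e-04) and *Nrn1* (adjusted p = 3.26e-11) the members called. With the set term, edgeR called 2358 genes higher (14.6%) and 2056 lower (12.8%), and 4 of the 8 anergy genes higher and 2 lower. The same 6 anergy genes passed with the set term in the DESeq2 Wald test (11.7% of all genes higher and 12.5% lower), with DESeq2's size factors in edgeR (13.7% and 14.8%) and with total library size in edgeR (19% and 12.6%). The edgeR fit with the set term has 1 residual degree of freedom. It called 0 of 12385 genes when only curated RefSeq transcripts were summed, with adjusted p from 0.133 to 0.17 for the 6 anergy genes. At an unadjusted p under 0.05, 1532 of those 12385 genes were higher and 1341 lower. The fold changes were of like or larger size there, at 2.41 for *Izumo1r*, 4.46 for *Nrn1*, 1.62 for *Rnf128*, -0.47 for *Itch*, -0.82 for *Dgka* and 0.45 for *Dgkz* on the log2 scale.

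The surface proteins had the widest ratios of the 8 genes. *Izumo1r* (gene ID 64931, chr9:14885814-14903951 of GRCm38, minus strand) encodes folate receptor 4, a glycosylphosphatidylinositol-anchored protein of the folate receptor family. It had 105 CPM in the Lrig1- and 540.0 CPM in the Lrig1+ library of set 1, and 142 and 820.3 CPM in set 2. Both Lrig1+ libraries were far above both Lrig1- libraries. The ratio was 5.15-fold in set 1 and 5.78-fold in set 2, and the counting error was small, with a log2 ratio of 2.36 (95% exact binomial interval 2.32 to 2.41) and 2.53 (2.5 to 2.57). These intervals cover counting error only. The log2 fold change over all libraries was 2.46 (standard error 0.44, adjusted p = 0.58 in edgeR's quasi-likelihood test). With the set term it was 2.45 (standard error 0.09, adjusted p = 9.57e-06 in the same test).

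Its 10 transcripts start in a pair of clusters whose summed levels were both higher. In both sets, all 4 transcripts of the upstream cluster and 4 of the 6 downstream ones were higher. Transcripts starting between 14903927 and 14903951 summed to 81.1 TPM in Lrig1- and 434 TPM in Lrig1+ T cells in set 1 and to 49.7 and 337 TPM in set 2. Those starting between 14902453 and 14902585 summed to 133 and 645 TPM in set 1 and to 117 and 702 TPM in set 2. The upstream cluster held between 29.8% and 40.2% of the gene's TPM, and the share differed less between the groups of a set than between the sets. The curated transcript NM_022888, of 244 codons in GENCODE, had 24.8, 152, 24.9 and 113 TPM (Lrig1- then Lrig1+, set 1 then set 2). The stretch before the upstream cluster is printed because it precedes the start shared by the curated transcripts of this gene. It is from RefSeq GRCm38.p6, minus strand, chr9:14903952-14904017, and the capitals mark the NFAT core, GGAAA on either strand (TTTCC on the strand printed).
Izumo1r: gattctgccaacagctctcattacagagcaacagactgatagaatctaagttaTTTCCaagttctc

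*Nrn1* (gene ID 68404, chr13:36725622-36734477, minus strand) encodes neuritin, a small glycosylphosphatidylinositol-anchored protein first known from neurons. It had 2.82 CPM in Lrig1- and 55.9 CPM in Lrig1+ T cells in set 1, and 4.18 and 97.5 CPM in set 2, from 135, 2908, 226 and 5600 counts. It was thus low in Lrig1- and clearly expressed in Lrig1+ T cells, and the groups did not overlap. The ratio was 19.8-fold in set 1 and 23.3-fold in set 2, the widest of the 8 genes in both sets. The log2 fold change was 4.45 (standard error 0.50, adjusted p = 0.501 in edgeR's quasi-likelihood test). With the set term it was 4.44 (standard error 0.11, adjusted p = 3.79e-06 in the same test), which ranked 145 of 16123 genes by fold change. Leaving out 1 library at a time without the set term, *Nrn1* passed in 3 of the 4 fits, namely without either library of set 1 (adjusted p = 0.00819 without the Lrig1- and 0.0434 without the Lrig1+ library) and without the Lrig1+ library of set 2 (0.0122); in these fits the lone library of a group is assumed to vary like the others. Nearly all of its level came from the curated transcript NM_153529, which made up from 90.9% to 98.2% of the gene's TPM in the 4 libraries.

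The 3 ubiquitin ligases differed in both direction and level. *Rnf128* (gene ID 66889, chrX:139563340-139673145, plus strand) encodes GRAIL, a transmembrane ligase with a lumenal protease-associated domain and a cytosolic RING domain that is known from anergic CD4+ T cells. It was the scarcest of the 8 genes, with 1.19 and 3.17 CPM in set 1 (57 counts in Lrig1- and 165 in Lrig1+ T cells) and 1.80 and 6.53 CPM in set 2 (97 and 375 counts). Both Lrig1+ libraries lay above both Lrig1- libraries, although 3.17 CPM in set 1 was within 2-fold of 1.80 CPM in set 2. The log2 ratio was 1.39 in set 1 and 1.84 in set 2, and the counting interval of the ratio of counts ran from 0.97 to 1.88 and from 1.54 to 2.2. The log2 fold change was 1.70 (standard error 0.62, adjusted p = 0.912 in edgeR's quasi-likelihood test). With the set term it was 1.65 (standard error 0.25, adjusted p = 0.00281 in the same test).

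All *Rnf128* counts in the 4 libraries were assigned to NM_023270, a transcript with 428 codons that starts at 139610620, and none to NM_001254761, with 402 codons. The start that was used lies in intron 1 of the other transcript, 47280 bases downstream of its start. For that reason the 250 bases before the start in use are printed, from RefSeq GRCm38.p6, plus strand, chrX:139610370-139610619. Capitals again mark the NFAT core, which occurred 163 and 116 bases before the start.
Rnf128: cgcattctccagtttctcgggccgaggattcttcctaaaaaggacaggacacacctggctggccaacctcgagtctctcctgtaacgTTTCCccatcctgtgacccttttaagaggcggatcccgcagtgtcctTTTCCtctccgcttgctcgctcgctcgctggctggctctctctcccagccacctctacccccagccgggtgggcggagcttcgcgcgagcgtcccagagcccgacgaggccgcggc

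*Cblb* (gene ID 208650, chr16:52031230-52208047, plus strand) encodes Cbl-b, a RING ligase that sets the threshold for activation without CD28. It had 190 and 179 CPM in set 1 and 152 and 140 CPM in set 2 (Lrig1- then Lrig1+). The groups overlapped, since the Lrig1+ library of set 1 lay above the Lrig1- library of set 2. The log2 ratio was -0.09 in set 1 and -0.12 in set 2, and neither fit passed (log2 fold change -0.10, standard error 0.33, adjusted p = 1.00; with the set term -0.10, standard error 0.07, adjusted p = 0.355, edgeR's quasi-likelihood test). No difference in *Cblb* was detectable beyond the spread between libraries, and its sign turned to 0.11 without the Lrig1- library of set 1 and to 0.06 without the Lrig1+ library of set 2. Summing only its curated transcripts, the log2 ratio was -0.18 in set 1 and 0.24 in set 2.

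*Itch* (gene ID 16396, chr2:155133481-155226855, plus strand) encodes a HECT ligase whose loss in mice leads to itching and a Th2-biased inflammation. It had 114 and 96.4 CPM in set 1 and 110 and 80.2 CPM in set 2. Both Lrig1+ libraries were below both Lrig1- libraries, the only such case among the 8 genes, but by little, with ratios of 0.845 and 0.732. The log2 fold change was -0.34 (standard error 0.28, adjusted p = 1.00), and with the set term it was -0.35 (standard error 0.08, adjusted p = 0.0163 in edgeR's quasi-likelihood test). The curated transcripts NM_008395 and NM_001243712, which encode the same 864 codons, held most of its level. NM_008395 made up from 52.8% to 70.2% of the gene's TPM and was the only 1 of the 5 transcripts that was lower in both sets. NM_001243712 had TPM ratios of 0.687 in set 1 and 1.14 in set 2.

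The diacylglycerol kinases went in opposite directions. *Dgka* (gene ID 13139, chr10:128720131-128745084, minus strand) encodes the alpha isoform, which is regulated by calcium and is abundant in resting T cells. It had 1583 and 1175 CPM in set 1 and 819 and 485 CPM in set 2. Within each set the Lrig1+ library was lower, at ratios of 0.742 and 0.592, but the groups overlapped across sets. The log2 fold change was -0.53 (standard error 0.67, adjusted p = 1.00) and with the set term it was -0.59 (standard error 0.12, adjusted p = 0.00978 in edgeR's quasi-likelihood test). Without the set term and without the Lrig1- library of set 1 its sign turned, to 0.05.

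*Dgkz* (gene ID 104418, chr2:91932822-91976443, minus strand) encodes the zeta isoform, which has a nuclear localization signal and a PDZ-binding tail and is known as the stronger brake on Ras in T cells. It had 704 and 1019 CPM in set 1 and 424 and 539 CPM in set 2. The Lrig1+ library was higher within each set, at 1.45-fold and 1.27-fold, and again the groups overlapped across sets. The log2 fold change was 0.47 (standard error 0.54, adjusted p = 1.00), and with the set term it was 0.44 (standard error 0.10, adjusted p = 0.0163 in edgeR's quasi-likelihood test). Without the set term and without the Lrig1+ library of set 1 its sign turned, to -0.05. Per length, *Dgka* exceeded *Dgkz* in every library, by 3.75 times in Lrig1- and 2.01 times in Lrig1+ T cells in set 1 and by 2.58 and 1.17 times in set 2. The excess of *Dgka* was thus smaller in the Lrig1+ library of each set.

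The 24 transcripts of *Dgkz* did not move alike. Those that start with NM_138306, between 91963563 and 91963750, summed to 288 TPM in Lrig1- and 359 TPM in Lrig1+ T cells in set 1, and to 135 and 162 TPM in set 2, ratios of 1.25 and 1.20. The 12 transcripts that start between 91950214 and 91950422, in intron 1 of NM_138306, summed to 84.2 and 154 TPM in set 1 and to 13.5 and 55.3 TPM in set 2, ratios of 1.82 and 4.09. Their share of the gene's TPM went from 21.6% to 28.9% in set 1 and from 8.64% to 24.9% in set 2. The sums hide opposite movements, since all 12 transcripts were higher in Lrig1+ T cells in set 1 but 3 were higher and 9 lower in set 2. The 10 that start at 91950214 summed to 80.5 and 124 TPM in set 1 and to 9.07 and 1.32 TPM in set 2, and 7 of them had ratios of 1.81 to 1.98 in set 1 and of 0.0387 to 0.154 in set 2. The higher sum of set 2 came from the other two, NM_001166597 and XM_006498537.

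NM_001166597, of that downstream group, is described because its values had been seen, and no test bears on it. It starts at 91950348, 13215 bases downstream of the start of NM_138306, and its coding sequence is longer, at 1123 against 929 codons, and the transcripts have different first exons. It had 2.52 TPM (193 counts) in Lrig1- and 26.8 TPM (2282 counts) in Lrig1+ T cells in set 1, and 3.10 TPM (486 counts) and 47.2 TPM (7272 counts) in set 2. Both Lrig1+ libraries were far above both Lrig1- libraries, by 10.6-fold and 15.2-fold in TPM, while NM_138306 itself had TPM ratios of 1.16 and 1.15. From counts scaled with TMM factors, the log2 ratios were 3.44 in set 1 and 3.81 in set 2 for NM_001166597. Those for NM_138306 were 0.25 and 0.09. StringTie divides reads among transcripts that share most of their exons, so the level of a single transcript is less certain than that of the gene, and more *Dgkz* RNA from this start cannot be told apart from another division of reads among its transcripts. A predicted non-coding transcript of the same downstream group, XR_003949865, had 48.7 and 64.4 TPM in set 1 but 0.988 and 0.72 TPM in set 2.

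The bases before both *Dgkz* starts are printed to let them be compared, from RefSeq GRCm38.p6, minus strand, as far as they lie outside the transcripts listed for that start. The upstream start has chr2:91963751-91963813 and the intron 1 start has chr2:91950423-91950598. Capitals mark the NFAT core, found 247 bases before the intron 1 start and not found in the 250 bases before the upstream start.
Dgkz upstream start: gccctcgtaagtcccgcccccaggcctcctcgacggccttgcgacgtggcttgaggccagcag
Dgkz intron 1 start: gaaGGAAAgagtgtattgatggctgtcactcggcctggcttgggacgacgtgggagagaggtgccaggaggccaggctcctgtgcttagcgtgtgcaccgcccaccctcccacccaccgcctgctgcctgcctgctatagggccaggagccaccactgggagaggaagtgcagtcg

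*Dgka* transcripts fell into 3 groups by start, and these did not behave alike either. Those that start between 128744878 and 128745084, furthest upstream, had 730.3 and 459 TPM in set 1 and 284 and 158 TPM in set 2, ratios of 0.629 and 0.557. The group that starts between 128743884 and 128744076 had 135 and 137 TPM in set 1 and 77.1 and 83.4 TPM in set 2, ratios of 1.01 and 1.08. Within it, the curated NM_016811 (730 codons) was lower in Lrig1+ T cells at ratios of 0.635 and 0.424, whereas the predicted XM_030244863 was higher at ratios of 3.35 and 1.39. The 11 transcripts with the most downstream starts, between 128737144 and 128737592, had 600.2 and 470.2 TPM in set 1 and 43.4 and 19.2 TPM in set 2. This last group took 40.9% and 44.1% of the gene's TPM in set 1 and 10.7% and 7.35% in set 2, so its share differed more between sets than between groups. The share of the middle group, by contrast, went from 9.24% to 12.9% in set 1 and from 19.1% to 32.0% in set 2 (Lrig1- then Lrig1+).

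**Figure D2:**
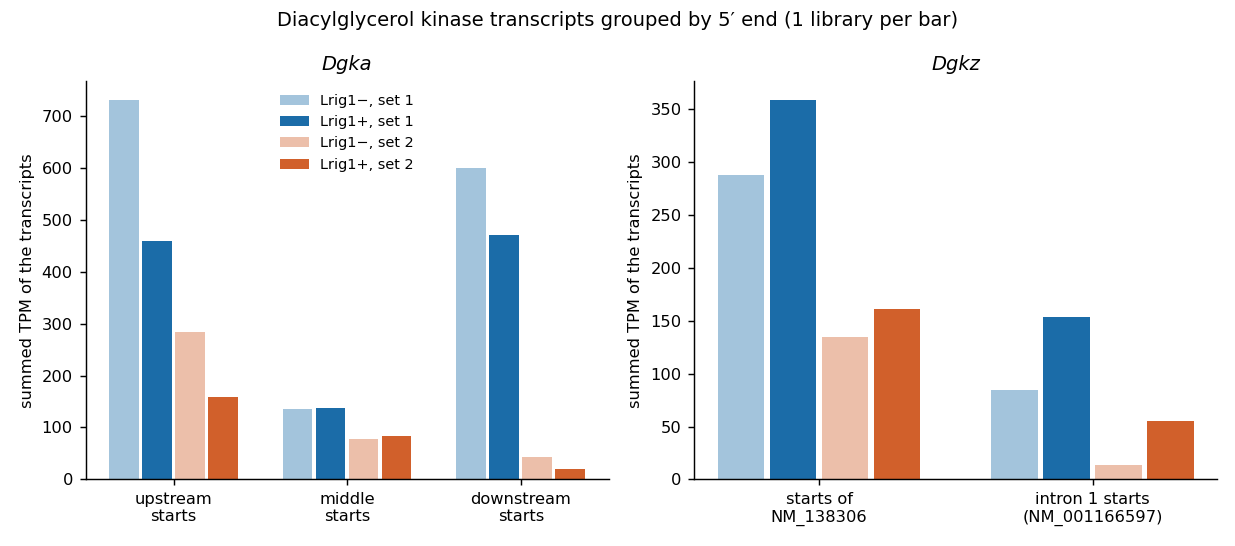
Summed TPM of the *Dgka* (left) and *Dgkz* (right) transcripts grouped by 5′ end, 1 bar per library, with set 1 in blue, set 2 in orange and Lrig1- in the pale shade. The upstream *Dgka* group is lower in Lrig1+ T cells in both sets (730.3 and 459 TPM, 284 and 158 TPM), and the sum of the *Dgkz* group that starts in intron 1 is higher in both sets (84.2 and 154 TPM, 13.5 and 55.3 TPM), although 9 of its 12 transcripts were lower in set 2.

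*Ndrg1* (gene ID 17988, chr15:66929318-66969641, minus strand), named for its regulation by the Myc family, encodes a cytosolic protein that has been linked to anergy downstream of Egr2. It had 20.6 and 18.7 CPM in set 1 and 27.6 and 30.2 CPM in set 2. It was a little lower in the Lrig1+ library of set 1 and a little higher in that of set 2, and the groups overlapped. Neither fit passed (log2 fold change 0.02, standard error 0.39, adjusted p = 1.00; with the set term -0.003, standard error 0.10, adjusted p = 0.988, edgeR's quasi-likelihood test). Without the Lrig1- library of set 1 its log2 fold change was -0.13, and without the Lrig1+ library of set 2 it was -0.37. The tables list 1 transcript of it, NM_008681.

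The order of the levels per length differed between the groups. In both Lrig1- libraries *Dgka* was highest, at 1466 and 404 TPM, and *Nrn1* (4.41 and 3.61 TPM) and *Rnf128* (1.10 and 0.916 TPM) were lowest. In both Lrig1+ libraries *Izumo1r* was highest, at 1079 and 1039 TPM, and *Nrn1*, at 86.1 and 91.7 TPM, stood in the fourth place, above *Cblb* (67.2 and 32.7 TPM), *Itch* (46.3 and 23.3 TPM) and *Ndrg1* (16.2 and 15.9 TPM). In set 1 *Izumo1r* and *Dgka* (1067 TPM) were close together in Lrig1+ T cells, and in set 2 *Dgka* was at 261 TPM. *Rnf128* remained lowest, at 2.87 and 3.62 TPM. Other genes overlap some of these loci and could share reads with them, since the setting for strand in the counting is not given in the sources used here. The largest count among them in any library was 306, for *Gm39876* at *Dgkz*.

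**Figure D3:**
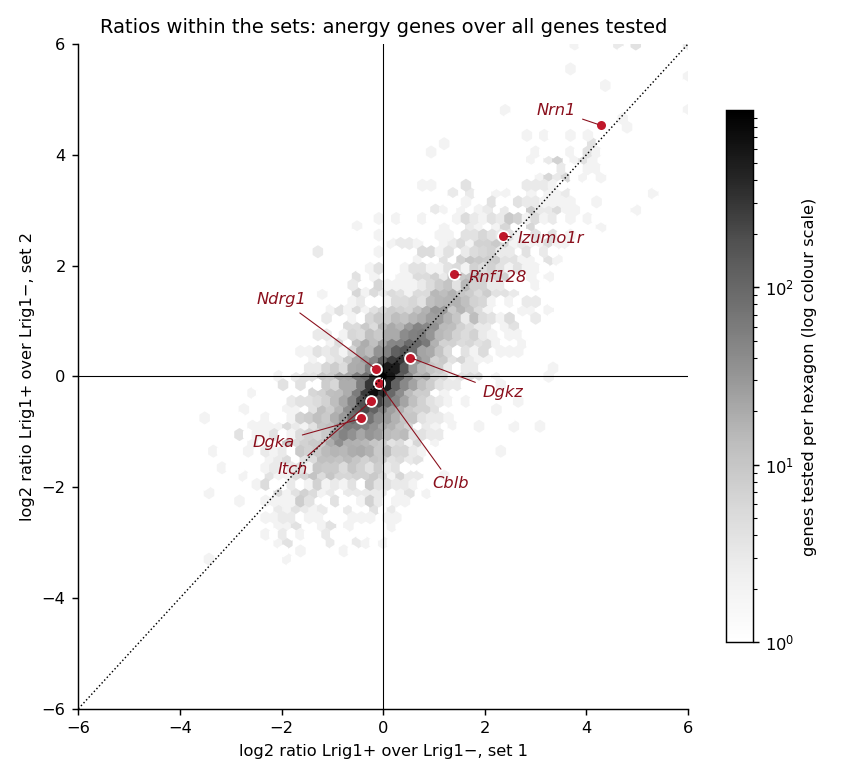
Log2 ratio of Lrig1+ over Lrig1- T cells in set 1 (x axis) and set 2 (y axis) for the 8 anergy genes (red points) over all 16123 genes tested (grey hexagons, darker with more genes on a log scale; the dotted line marks equal ratios). *Nrn1* lies at 4.29 and 4.53, *Izumo1r* at 2.36 and 2.53 and *Rnf128* at 1.39 and 1.84, and the other 5 genes lie within the dense centre, between -0.76 and 0.53.

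The median log2 fold change of the 8 genes was 0.24, against -0.04 over all genes tested. For lists of related genes the counts are those of edgeR's quasi-likelihood test with the set term, to be read against 14.6% higher and 12.8% lower over all genes. Without that term the test called 0 genes in any list. The medians are from the fit without the set term unless stated. Lists of gene families include the anergy genes that belong to them.

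Among ligases of the Cbl and HECT families, *Cblb* and *Itch* included, 9 of 12 were tested. Of these, 8 were lower in both sets, with both anergy genes among them, against 41.3% of all genes tested. With the set term 5 fell, *Itch* among them, and 1 rose, and the median log2 fold change was -0.34. *Nedd4*, a HECT ligase of the same subfamily as *Itch*, had 33.3 and 10.3 CPM in set 1 and 34.9 and 10.2 CPM in set 2, and fell by 1.73 on the log2 scale (adjusted p = 3.71e-05, set term). *Nedd4l* fell by 0.82, *Smurf2* by 0.58 and *Smurf1* by 0.44, so *Itch* was lower together with several relatives, while *Wwp2* rose by 0.44. *Cbl* had log2 ratios of -0.19 and -0.25 and, like *Cblb*, did not pass.

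Partners of the ligases were mixed, with 3 of 16 higher, 4 lower and a median of -0.10. *Ndfip1*, an adaptor that recruits and activates *Itch* and *Nedd4* proteins, had 121 and 192 CPM in set 1 and 294 and 485 CPM in set 2, and rose by 0.69 with the set term (adjusted p = 8.49e-04). *Socs1* rose by 0.73 and *Tnfaip3*, the ubiquitin-editing enzyme A20, by 0.43, and *Rc3h1*, which encodes the RNA-binding protein Roquin, fell by 0.36. Of 15 genes for known ligase substrates, 3 rose and 5 fell, with a median of -0.16. Of the proteins that GRAIL is known to ubiquitinate, *Cd83* rose by 2.90 and *Cd81* by 1.47, while *Cd40lg* fell by 0.85 with the set term and *Cd151* did not pass, with log2 ratios of 0.21 and -0.03. *Zap70*, a kinase at the T cell receptor, rose by 0.52.

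The ligases built like GRAIL, with a protease-associated domain and a RING, did not follow *Rnf128* as a family. Of 8 tested, which include *Rnf128* itself, 3 rose, *Rnf128* among them, and 4 fell, with a median of -0.49. *Rnf43*, known for removing Wnt receptors, had 17.8 and 62.4 CPM in set 1 and 9.67 and 31.3 CPM in set 2 and rose by 1.75 (adjusted p = 3.03e-05, set term), whereas its close relative *Znrf3* fell by 0.72. *Rnf130* fell by 0.58 and *Rnf167* by 0.69.

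**Figure D4:**
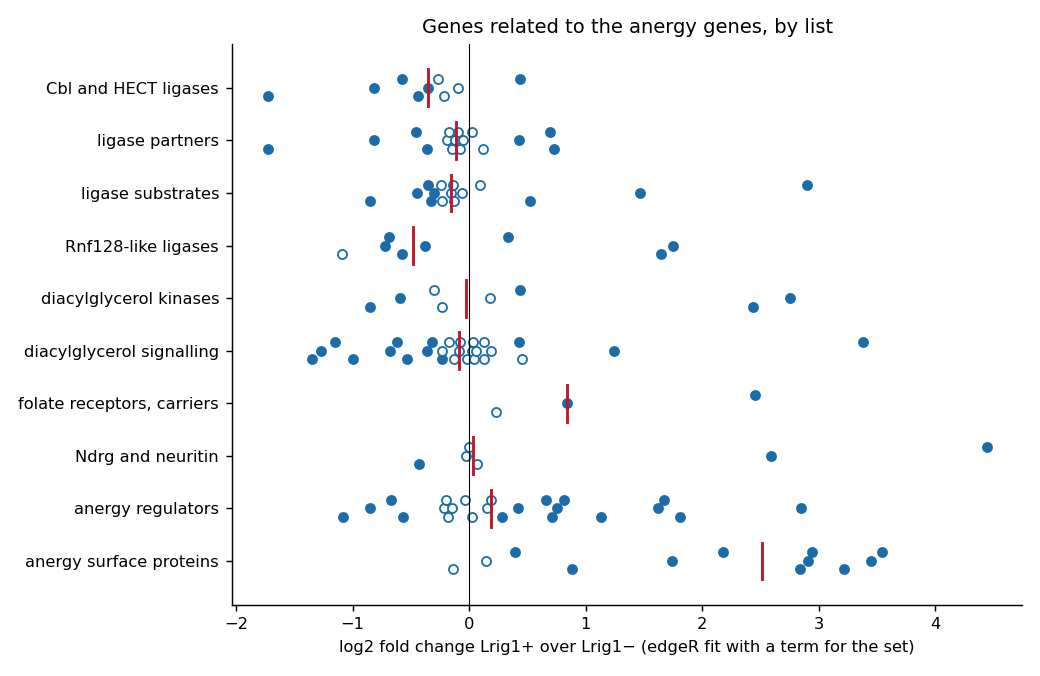
Log2 fold change of Lrig1+ over Lrig1- T cells in the edgeR fit with the set term for each tested gene (points) of 10 lists related to the anergy genes, which include the anergy genes themselves. Filled points passed an adjusted p of 0.05 and open points did not; red bars mark list medians, of which that of anergy surface proteins (2.51) was highest and that of Rnf128-like ligases (-0.48) lowest.

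Of the 10 diacylglycerol kinases, *Dgka* and *Dgkz* included, 8 were tested, 3 rose, 2 fell, and the median was near 0 (with the set term -0.03). *Dgkd*, of the delta type, had 432 and 277 CPM in set 1 and 295 and 142 CPM in set 2 and fell by 0.85 with the set term (adjusted p = 0.00159), and *Dgkg* and *Dgki*, which rose like *Dgkz*, had at most 2.50 CPM in any library. Of 27 tested genes that make, sense or relay diacylglycerol, 3 rose and 10 fell, with a median of -0.09. *Rasgrp2*, an exchange factor for Rap1 of the RasGRP family, had 571 and 304 CPM in set 1 and 226 and 107 CPM in set 2 and fell by 1.00 (adjusted p = 2.52e-04). *Prkd3* fell by 1.27, *Sos1* by 0.62 and *Plcg2* by 1.15. *Prkca*, a classical protein kinase C, had 97.8 and 216 CPM in set 1 and 58.7 and 148 CPM in set 2 and rose by 1.24 (adjusted p = 7.39e-05). *Plcg2* and *Rasgrp3* (which fell by 1.35) are also known from B cells, whose 10 markers summed to 78.5 and 98.3 CPM in set 1 and to 775 and 391 CPM in set 2 with no marker at 0; the part of B cell RNA in these results was not tested.

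*Izumo1r* was the only listed folate receptor that passed the filter on low counts. *Folr1* had no counts in any library, *Folr2* at most 1 and *Izumo1*, the sperm ligand of the receptor, at most 4. The reduced folate carrier *Slc19a1* had 19.9 and 35.8 CPM in set 1 and 23.8 and 42.3 CPM in set 2 and rose by 0.84 with the set term (adjusted p = 5.44e-04). Of the relatives of *Nrn1* and *Ndrg1*, *Ndrg3* fell by 0.43 and *Ndrg4*, at no more than 2.05 CPM, rose by 2.59, while *Ndrg2* and *Nrn1l* did not pass.

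Regulators of anergy were mixed, with 11 of 23 higher, 4 lower and a median of 0.19. *Egr2*, a transcription factor of the anergy programme, had 16.9 and 56.2 CPM in set 1 and 16.4 and 60.6 CPM in set 2 and rose by 1.81 with the set term (adjusted p = 2.58e-05). *Bhlhe40* rose by 1.62, *Nr4a2* by 2.85 and *Nr4a3* by 1.13, and *Pag1*, an adaptor that holds the kinase Csk at the membrane, fell by 1.08. Of the 12 surface proteins tested that are known from anergic cells, 10 rose and 0 fell, with a median of 2.50. *Nt5e*, which encodes CD73, the marker used beside folate receptor 4 to define anergic CD4+ T cells, had 34.2 and 224 CPM in set 1 and 29.1 and 226 CPM in set 2 and rose by 2.84 (adjusted p = 4.8e-06). *Nrp1* rose by 3.54, *Pdcd1* by 3.22 and *Lag3* by 2.94, all with no overlap between the groups. Treg cells express most of these surface proteins as well, and 1 gene of this list, *Ctla4*, is also among the 5 Treg markers.

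The 3 genes (mean of at least 10 CPM) whose centred log2 CPM over the 4 libraries lay nearest to each anergy gene were listed as a description, since 4 libraries that fall into 2 sets leave few patterns to tell apart. Nearest to *Izumo1r* were *Abhd4* (distance 0.113), *Casp4* (0.162) and *Zdhhc2* (0.274), and nearest to *Rnf128* were *Decr1* (0.149), *Lxn* (0.23) and *H1f0* (0.248). *Nrn1* had the loosest neighbours, *Ptpn5* (0.579), *Rln3* (0.629) and *Tnfrsf9* (0.717), all with log2 ratios over 3 in both sets. The neighbours of the less variable genes lay within 0.1, among them *Rrp12* and *LTO1* for *Cblb*; *Spata2l*, *Tmem186* and *Polr3b* for *Itch*; *Arrdc2*, *Zfp568* and *Eif4a2* for *Dgka*; *Ppp1r16b* and *Zscan29* for *Dgkz*; and *Exosc5*, *Dguok* and *Dhrs4* for *Ndrg1*.

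The 250 bases before 9 RefSeq starts were searched for motifs of factors of the anergy programme, on both strands, for the 5 anergy genes with an entry (*Izumo1r*, *Rnf128*, *Cblb*, *Dgka* and *Dgkz*). The NFAT core GGAAA is short and was found before 55.6% of 32851 promoters, and it was found before 7 of the 9 starts. The 9 windows are not separate promoters, since several belong to *Dgka*, where some overlap. The *Cblb* window lies within listed transcripts of that gene that start further upstream. Those of *Izumo1r* and *Dgkz*, and that before the *Dgka* start at 128743878, do so in part. The AP-1 site TGANTCA (6.75% of promoters), the EGR site GCGNGGGCG (4.70%) and the forkhead site TGTTTAC (3.17%) were found before none of the 9 starts. A match describes these letters in this window and does not show binding.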

How the data were processed

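The labels list 6 samples. Per the notes the authors gave GEO, reads were processed with Trimmomatic 0.38, HISAT2 2.1.0, Bowtie2 2.3.4.1 and StringTie 2.1.3b on GRCm38 (mm10). The authors deposited an estimated count per RefSeq transcript, with no normalization, and beside it the FPKM and the TPM, which they scaled for transcript length and library. Another table holds 6 per-sample columns whose names show no group, and they were left out.

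Counts were summed per gene, giving whole numbers. The quasi-likelihood test of edgeR 4.0.16 (R 4.3.3) was run after filterByExpr and TMM scaling, without a term for the table (set) and, as an alternative, with it. The standard error is the log2 fold change divided by the square root of F. Log2 ratios of gene counts within a set had a prior count of 2 added, whereas fold ratios and counting intervals had none. Other alternatives were DESeq2 1.42.0 (Wald test, size factors), total library size, other filters, limma 3.58.1 on log2 FPKM with a pseudocount of 1 or 0.1, curated transcripts only, and each library left out in turn; 4 combinations with the set term were added after seeing the data. With 2 libraries against 2, an exact permutation test cannot give a p below 0.333. Depth is given with the results, and intervals cover counting error only.

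Transcripts were grouped by 5′ ends less than 500 bases apart. Codons and exons are from GENCODE M21, and promoter sequences from RefSeq GRCm38.p6. The start and end of the whole gene in RefSeq matched the tables for 8 of the 8 genes. Some promoter starts, such as 14903767 for *Izumo1r* and 128737612 for *Dgka*, are not the 5′ end of a listed transcript. Files were read with Python 3.11.15. The genes named are the 8 anergy genes, up to 6 genes per list called with the set term with the smallest p, all genes of lists of 5 or fewer, 3 nearest genes per anergy gene, and *Lrig1* and *Foxp3*. Some genes that this rule names are not reported here. *Cbl*, *Cd151*, *Ndrg2*, *Nrn1l*, *Folr1*, *Folr2*, *Izumo1*, *Gm39876* and the single transcripts fall outside this rule and were chosen after their values were seen. The members and lists were chosen with earlier results of these data known.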

Additional observations from a re-analysis of the deposited data

How the results depend on the processing

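The table that holds a library was used as a replicate block in place of replicate numbers, which the columns do not carry. The labels do not say that a table marks a shared batch; across 16123 genes, the difference of set 1 from set 2 correlated at 0.932 between the Lrig1- and the Lrig1+ libraries. Without the block 0 genes passed in either direction, and with it 2358 passed higher and 2056 lower. *Izumo1r* (2.45), *Rnf128* (1.65), *Itch* (-0.35), *Dgka* (-0.59), *Dgkz* (0.44) and *Nrn1* (4.44) then passed and *Ndrg1* (-0.003) turned its sign. At an adjusted p under 0.1 the block gave 2954 and 2824. The same 6 genes passed with the block under DESeq2's Wald test (2.43, 1.62, -0.37, -0.61, 0.42 and 4.41; 1848 genes higher and 1969 lower; *Ndrg1* -0.03), under DESeq2's size factors in edgeR (2.43, 1.63, -0.37, -0.61, 0.42 and 4.42; 2208 and 2388; *Ndrg1* -0.02) and under total library size (2.50, 1.71, -0.29, -0.54, 0.50 and 4.50; 3065 and 2024). With curated transcripts only and the block none passed, *Cblb* was 0.03 and *Ndrg1* -0.02.

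Without the block, the DESeq2 Wald test called 260 genes higher and 50 lower, with *Izumo1r* (2.45) and *Nrn1* (4.44) among them. *Cblb* was 0.02 with curated transcripts only. Its mean log2 ratio within sets, -0.10, moved to -0.04 under total library size, to -0.05 from FPKM and to 0.03 with curated transcripts, and that of *Dgka*, -0.59, to -0.82 with curated transcripts. Leaving out each library in turn gave 1 to 88 genes higher and 0 to 2 lower, and log2 fold changes from -0.26 to 0.11 for *Cblb*, -1.29 to 0.05 for *Dgka*, -0.05 to 0.91 for *Dgkz*, -0.37 to 0.36 for *Ndrg1* and 3.99 to 4.83 for *Nrn1*. The sign of *Ndrg1* turned without the Lrig1- library of set 1 (-0.13) and without the Lrig1+ library of set 2, and that of *Cblb* without the same libraries (0.11 and 0.06). The causes were not tested. Of 206 values under an alternative, 143 kept their direction and their side of the threshold or stayed within the spread between sets.

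Only 4 libraries in 2 sets limit every test. Sums per gene rest on at least 973 counts except for *Rnf128* and, in Lrig1- T cells, *Nrn1*, and levels of single transcripts depend on how reads were divided among overlapping models.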
